A study of Mus musculus with 4 samples.

Results

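The comparison set regulatory T cells (Treg cells) from the spleen of mice carrying PPARg-2KR against those of wild type (WT) mice. Its members were the 7846 of 23284 gene symbols with at least 20 CPM (reads per 1000000 of the adjusted library size) in 1 of the 2 spleen libraries. The mice of both genotypes were C57BL/6 and 12 to 13 months old. The series measured gene expression by RNA sequencing in Treg cells of eWAT (white fat of the epididymis, a visceral depot) and of spleen, the control tissue. Its 4 libraries are 1 of each genotype from each tissue. Whether a library held cells of 1 animal or of several, and which gate was used in the sort, is not given in the sources used here. With 1 library a side, genotype differences in spleen are given as log2 ratios of 2KR over WT without a p-value. Their 95% exact intervals cover counting error only, since reads without molecular identifiers are not independent molecules and the spread between animals is not included.

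PPARG is a nuclear receptor that pairs with RXR on DNA and switches on genes of lipid uptake, storage and handling. Treg cells of visceral fat are known for a high level of it, and those of lymphoid organs for a low one. Acetyl groups on lysines of the receptor change which partner proteins it binds, and the 2KR allele puts arginine, which cannot be acetylated, in place of a pair of lysines (K268R and K293R, numbered in the longer protein of 505 residues). The reference coding stretch that holds both lysine codons is shown because it is the part of the gene that the allele alters. It lies on mouse chromosome 6 (GRCm38, + strand, GENCODE), runs from chr6:115463256-115463285 in coding exon 5 of 7 to chr6:115472861-115472932 in exon 6, and has the lysine codons in capitals.
Pparg: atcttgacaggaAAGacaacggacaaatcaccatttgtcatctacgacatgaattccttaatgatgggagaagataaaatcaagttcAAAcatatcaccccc

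Pparg itself was below the 20 CPM minimum in spleen. It had 71 reads (5.73 CPM) in WT spleen and 44 reads (2.89 CPM) in 2KR spleen, a log2 ratio of −0.95 (interval −1.57 to −0.43). In eWAT it stood at 129.5 CPM in WT against 63.9 CPM in 2KR, so both spleen libraries lay far below both eWAT libraries. The allele is a change of codons, which counts per gene do not show, so this level is no check of the genotype. Foxp3, which defines the Treg lineage, was at 1408 CPM in WT spleen and 1298 CPM in 2KR spleen, a log2 ratio of −0.12. In bulk RNA, fewer cells of a type and less RNA per cell cannot be told apart.

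Library totals were 13250590 reads in WT spleen and 15993889 reads in 2KR spleen, and 11186660 and 8315569 reads in WT and 2KR eWAT. A count of 0 allows up to 0.242 CPM in WT spleen and 0.197 CPM in 2KR spleen (3 reads). Some counts looked too low for their genes: Gapdh, a glycolysis enzyme, had 111 reads in WT spleen and 146 in 2KR spleen, and Hmgcs1, a cholesterol synthesis enzyme, had 0 reads in all 4 libraries. The cause was not tested. The Y-linked genes Ddx3y, Eif2s3y, Kdm5d and Uty were present in all 4 libraries.

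Most genes of spleen Treg cells had nearly the same level in the 2 genotypes. Over the 7846 members the median log2 ratio was −0.03 with an SD of 0.25 across genes, and 7578 members (96.6%) lay within 0.5 of 0. A log2 ratio of 1 or more was found for 4 genes (0.051% of the members) and of −1 or less for 10 genes (0.127%), 14 in all (0.178%). At a 1.5-fold difference the counts were 62 higher (0.79%) and 78 lower (0.994%). Of the 2742 members with a mean of 100 CPM or more, 0 differed by 2-fold. The interval lay wholly beyond 2-fold for 7 genes, 3 higher and 4 lower. With the trimmed mean of M-values (TMM) factors taken from the spleen libraries alone, 7 genes were higher and 6 lower, and with DESeq2 size factors 8 were higher and 9 lower. Genes near the line moved across it: with the former, Carns1, Mast2 and Hsph1 were past 2-fold, and Sostdc1 (−0.99), Srxn1 (−0.97) and Ctsf (−0.92) were not. The median over the members then was 0.07 and 0.04, so a list median closer to 0 than about this shift has no fixed direction.

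**Figure D1:**
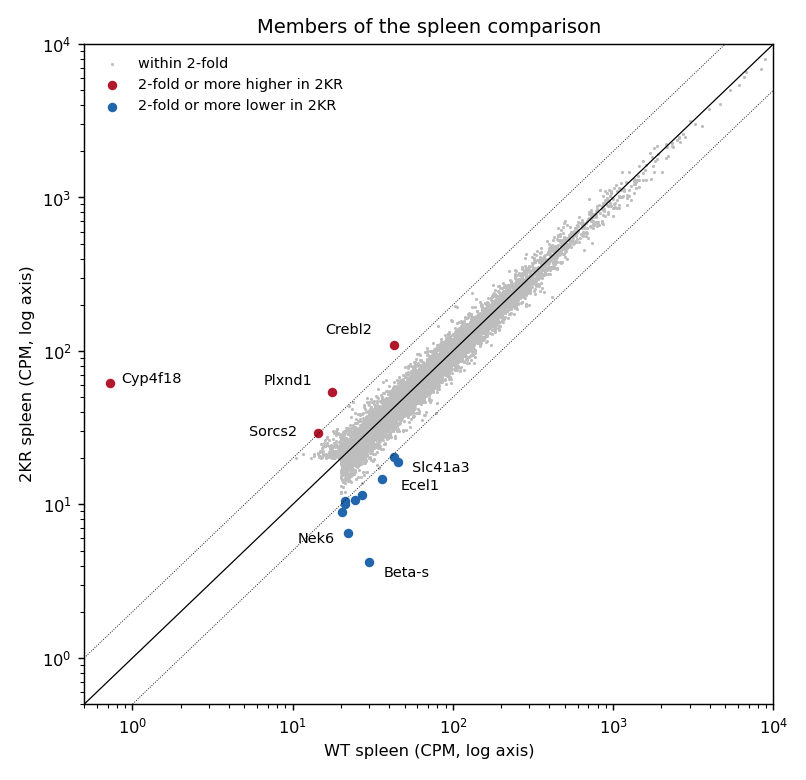
Level of each member in WT spleen (horizontal) and 2KR spleen (vertical), in CPM on log axes, 1 point per gene, with equal levels on the solid line and 2-fold differences on the dotted lines. Coloured points are the 4 genes higher and 10 lower by 2-fold: Cyp4f18 lies far to the left, Beta-s and Nek6 lie lowest, and others lie just past a dotted line.

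The same genes differed more between genotypes in eWAT. Of the members, 7028 also reached 20 CPM in an eWAT library. Over these genes the SD of the log2 ratio was 0.24 in spleen and 0.37 in eWAT, and 80.1% of the eWAT ratios lay within 0.5 of 0. The median was −0.02 in spleen and −0.20 in eWAT, where 28.5% of the ratios lay above 0. Counts taken from 0 in eWAT include this shift of the whole set. The 2KR eWAT library had 37 of these genes higher by 2-fold (0.526%) and 109 lower (1.55%), whereas 9 (0.128%) differed by 2-fold in spleen. Across these genes the ratios of the 2 tissues had a Pearson r of 0.12 and a Spearman rho of 0.19, which is a description over genes, not a test. Genes past 2-fold in both tissues were Slc41a3, lower in both, and Cyp4f18, which had opposite directions.

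Cyp4f18 stood farthest from the other genes. It encodes a cytochrome P450 enzyme that oxidises leukotriene B4, a lipid attractant of leukocytes, and lies at chr8:74512381-74533525 (mm9). It had 9 reads (0.727 CPM) in WT spleen and 948 reads (62.2 CPM) in 2KR spleen, a log2 ratio of 6.12 (interval of the unsmoothed ratio 5.49 to 7.55) with a prior count of 2. The ratio of the scaled reads without a prior was 85.5-fold (44.9 to 187.6). In eWAT the order was the opposite, with 236.0 CPM in WT and 57.4 CPM in 2KR, a log2 ratio of −2.04. The 2KR spleen library thus held it near the level of 2KR eWAT, and WT spleen alone had next to none. The deposited FPKM values (fragments scaled for transcript length and depth) gave the same order in spleen, 0.439 in WT and 37.1 in 2KR. The 30 other members within 1 Mb of it had log2 ratios from −0.67 to 0.53.

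Of the other 3 genes higher in 2KR spleen, 2 lie on chromosome 6, as Pparg does. Plxnd1, a plexin receptor for semaphorins (chr6:115904829-115945023, mm9), stood at 17.6 CPM in WT spleen and 53.8 CPM in 2KR spleen, a log2 ratio of 1.60 (1.39 to 1.83). Its eWAT levels were close together, 44.6 CPM in WT and 53.2 CPM in 2KR. The WT spleen library was the low one of the 4. Crebl2, a leucine zipper protein related to CREB (chr6:134780217-134807901), stood at 42.6 CPM in WT spleen and 110.0 CPM in 2KR spleen, a log2 ratio of 1.36 (1.23 to 1.51). It was also higher in 2KR eWAT, at 85.0 against 53.6 CPM, and so both 2KR libraries lay above both WT libraries. Sorcs2, a sorting receptor on chromosome 5, stood at 14.4 CPM in WT spleen and 29.4 CPM in 2KR spleen, a log2 ratio of 1.02 (0.78 to 1.29).

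Beta-s and Nek6 led the genes lower in 2KR spleen. Beta-s, a haemoglobin beta chain gene on chromosome 7, had 371 reads (29.96 CPM) in WT spleen and 64 reads (4.20 CPM) in 2KR spleen, a log2 ratio of −2.79 (−3.24 to −2.45). The other haemoglobin symbols Hba-a1, Hba-a2, Hbb-b1 and Hbb-b2 had 0 reads in both, so Beta-s carried all reads of these 5 symbols. Nek6, a kinase of mitotic spindle formation on chromosome 2, stood at 22.2 CPM in WT spleen and 6.56 CPM in 2KR spleen, a log2 ratio of −1.73 (−2.11 to −1.43). In eWAT its order was the opposite, 10.2 CPM in WT and 17.7 CPM in 2KR. Ecel1, a membrane metalloprotease, stood at 36.1 CPM in WT spleen and 14.6 CPM in 2KR spleen, a log2 ratio of −1.29. Sostdc1, a secreted antagonist of BMP and Wnt signals, stood at 43.1 and 20.3 CPM, a log2 ratio of −1.08. Both genes were near the bottom of the range in eWAT, at 1.11 and 1.97 CPM for Ecel1 and 2.59 and 2.49 CPM for Sostdc1.

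Slc41a3 had the same ratio in both tissues. This member of a family of magnesium transporters (chr6:90554874-90596406, mm9) stood at 45.1 CPM in WT spleen and 19.0 CPM in 2KR spleen, a log2 ratio of −1.24 (−1.45 to −1.04). In eWAT it stood at 52.0 CPM in WT against 21.9 CPM in 2KR, also a log2 ratio of −1.24. The 2 WT libraries lay above the 2 2KR libraries without overlap. The remaining genes at least 2-fold lower in spleen were C1qb, a chain of complement C1q (27.1 to 11.5 CPM, log2 ratio −1.22), Nedd4, a ubiquitin ligase (20.4 to 8.92 CPM, −1.18), Slc37a2, a sugar phosphate exchanger (24.3 to 10.8 CPM, −1.16), Srxn1, the antioxidant enzyme sulfiredoxin (21.1 to 10.03 CPM, −1.06), and Ctsf, the protease cathepsin F (21.2 to 10.5 CPM, −1.01). Of the 10 genes lower, 7 had a mean under 20 CPM and so entered only through the WT library, and 3 remained when the mean had to reach 20 CPM. Of these 3, Ecel1 and Slc41a3 also entered through the WT library alone, and Sostdc1 reached 20 CPM in both. All 4 genes higher had a mean of 20 CPM or more. Even so, Cyp4f18, Plxnd1 and Sorcs2 reached 20 CPM in 2KR spleen alone, and Crebl2 in both libraries.

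**Figure D2:**
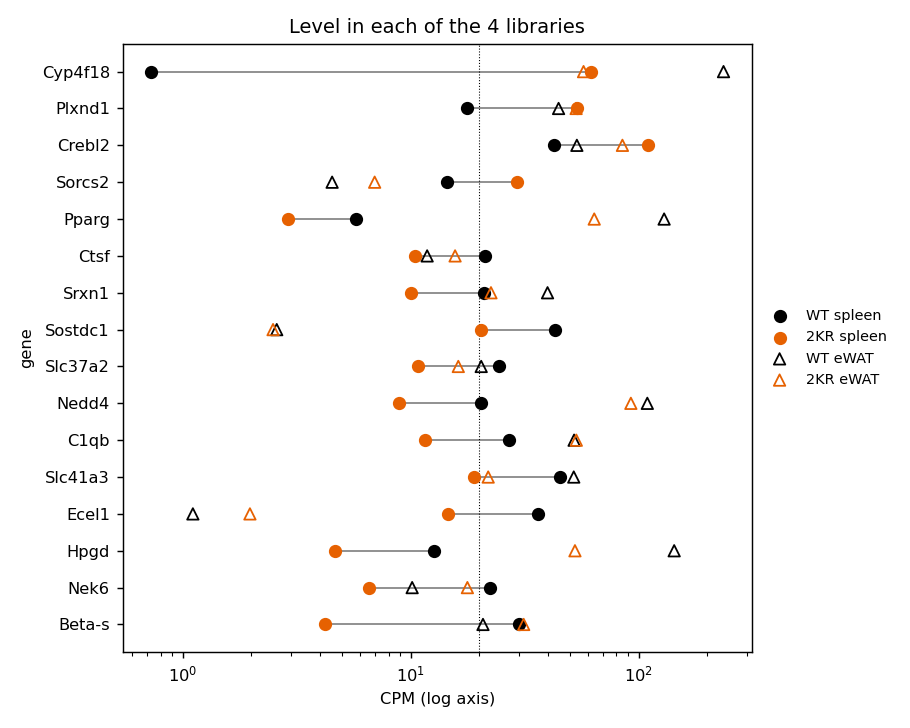
Level in CPM (log axis) of the 14 genes past 2-fold, Pparg and Hpgd in each of the 4 libraries, with filled circles for spleen, open triangles for eWAT, black for WT and orange for 2KR. Grey lines join the 2 spleen libraries, the dotted line marks 20 CPM, Cyp4f18 is low in WT spleen alone, and Slc41a3 and Hpgd are lower in 2KR in both tissues.

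Just inside the 20 CPM minimum lay Kif20b, with 19.3 CPM in WT spleen and 20.0001 CPM in 2KR spleen, and just outside it Tnfrsf22, at 19.9 and 19.2 CPM. Just inside the 2-fold line lay Ctsf at −1.01, and just outside it Apoe, the lipoprotein of lipid transport, at −0.99. The next genes below it were Lag3, an inhibitory receptor of T cells (78.4 to 39.7 CPM, −0.98), Scin, an actin-severing protein (−0.97), Glt28d2 (−0.90) and Il1r2, the decoy receptor of interleukin 1 (417.3 to 224.7 CPM, −0.89). On the higher side came Carns1, carnosine synthase, and Mast2, a kinase, both at 0.97, and Hsph1, a heat shock protein (102.5 to 197.5 CPM, 0.95). They were followed by Rhbdf2, a rhomboid pseudoprotease (0.94), Samd9l, an interferon-induced protein (130.5 to 238.9 CPM, 0.87), Myo6, a myosin (0.87), Prex1, an activator of Rac (106.4 to 192.8 CPM, 0.86), Ccdc117 (0.86), Snapc4, a factor of small nuclear RNA transcription (0.83), Hist3h2a, a histone (0.77), and Rtel1, a DNA helicase (0.76). Of the genes just named on the higher side, 5 had an eWAT log2 ratio below 0: Hist3h2a (−1.24), Hsph1 (−0.79), Prex1 (−0.53), Rhbdf2 (−0.15) and Myo6 (−0.08). On the lower side Glt28d2 (0.89), Lag3 (0.84), Il1r2 (0.46), Apoe (0.28) and Scin (0.25) were above 0 in eWAT. Among the members at 20 CPM in both tissues, 28.5% of the eWAT ratios lay above 0 and the median was −0.20. A ratio below 0 was thus the more common case there. Glt28d2, Lag3, Scin, Carns1 and Rhbdf2 did not reach 20 CPM in eWAT.

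Between 10 and 20 CPM in the higher of the 2 spleen libraries, a further 7 genes were higher by 2-fold and 14 lower. Each thus entered through its higher side. With them, 11 of the 9076 genes at 10 CPM or more were higher and 24 lower. Among the 10006 genes at 5 CPM or more in 1 spleen library, 0.31% were higher and 0.839% lower. The 7 higher ones included Xrcc2, a protein of DNA recombination repair, at 5.33 CPM in WT against 14.8 CPM in 2KR spleen (log2 ratio 1.45), Myadm (5.65 to 12.6 CPM, 1.13) and Mmp9, a matrix metalloprotease (7.03 to 14.6 CPM, 1.04). In eWAT the order of Mmp9 was the opposite, with 299.2 CPM in WT and 102.0 CPM in 2KR, a log2 ratio of −1.55. Among the 14 lower genes, C1qa, another C1q chain, stood at 12.0 and 4.59 CPM (−1.35), and Alpl, alkaline phosphatase, at 15.3 and 7.08 CPM (−1.09). These genes were chosen after their values were seen.

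The position of the genes on chromosome 6 was described because the altered gene lies there. Of the 372 members on chromosome 6, 3 (0.806%) were past 2-fold, against 0.178% of all members: Plxnd1, Crebl2 and Slc41a3. The share at 2-fold rests on these 3 genes. At 1.5-fold, 6 of the 372 (1.61%) differed, with both directions counted together. Among all members 0.79% were higher and 0.994% lower, which together is more than 1.61%. Chromosome 6 thus had no excess at 1.5-fold. Relative to Pparg, Plxnd1 lies at 0.55 Mb, Crebl2 at 19.4 Mb and Slc41a3 at −24.8 Mb, between gene midpoints. Within 5 Mb of Pparg there were 41 members with a median log2 ratio of −0.00. Apart from Plxnd1, the other 40 lay between −0.39 (Rpl32) and 0.47 (Erc1).

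Promoters of the 14 genes past 2-fold were searched for the half-site AGGTCA on both strands, the DNA word that nuclear receptors such as PPARG bind in pairs, and for AGGTCANAGGTCA, a pair spaced by 1 base. The windows run from 250 bases before to 50 after the start in RefSeq (GRCm38.p6), and 10 of the 14 genes matched, with 12 windows. The half-site was in 3 of these windows, those of Plxnd1, Srxn1 and Ctsf, and in 5340 of all 32851 windows (16.3%). The spaced pair was in 0 of the 12 and in 13 of all windows (0.0396%). The windows of the 2 genes with the highest ratios are shown, Cyp4f18 at chr8:72009577-72009876 (− strand), where the half-site was not found, and Plxnd1 at chr6:115994956-115995255 (− strand), with the half-site, read here on the opposite strand as TGACCT, in capitals.
Cyp4f18: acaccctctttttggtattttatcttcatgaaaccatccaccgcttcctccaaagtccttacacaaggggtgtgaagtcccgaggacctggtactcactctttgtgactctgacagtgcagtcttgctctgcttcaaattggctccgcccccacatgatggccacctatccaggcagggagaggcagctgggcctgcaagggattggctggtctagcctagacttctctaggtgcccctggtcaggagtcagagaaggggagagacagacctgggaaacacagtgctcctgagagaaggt
Plxnd1: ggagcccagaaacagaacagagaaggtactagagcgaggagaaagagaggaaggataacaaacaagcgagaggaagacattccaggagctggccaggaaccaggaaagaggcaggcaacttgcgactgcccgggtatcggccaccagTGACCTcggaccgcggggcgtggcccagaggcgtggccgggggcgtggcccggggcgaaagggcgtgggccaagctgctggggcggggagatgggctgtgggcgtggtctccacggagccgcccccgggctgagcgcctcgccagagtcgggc

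The only test these libraries allow is of a genotype effect shared by both tissues, fitted to 2 WT and 2 2KR libraries with a term for tissue. It has 1 residual degree of freedom, is not a test of spleen alone, and its p-values rest on the spread among the 4 libraries, which may be technical. A call does not require a difference in both tissues. Of 16488 genes tested, 11 were lower in the 2KR libraries (0.0667%) and 0 higher (0.0%) by edgeR's quasi-likelihood test with a Benjamini-Hochberg adjusted p under 0.05. At an unadjusted p under 0.05 edgeR had 212 higher and 565 lower of the 16488. Together these are less than the 0.05 share expected under that line if no gene differed. DESeq2 called 0 higher and 2 lower, Pcsk1 and Ccr1. Slc41a3 was the only member among the 11, with a log2 fold change of −1.24 (edgeR adjusted p = 0.00369, lower in 2 of 2 tissues), and it did not pass in DESeq2 (adjusted p = 0.659).

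The other genes called were low in spleen. Hpgd, the enzyme that inactivates prostaglandin E2, stood at 12.7 CPM in WT against 4.66 CPM in 2KR spleen, a log2 ratio of −1.41 (−1.87 to −1.03). In eWAT it stood at 143.4 and 52.6 CPM, a log2 ratio of −1.44, so it was lower in 2 of 2 tissues (edgeR adjusted p = 0.00079). DESeq2 gave an adjusted p of 0.0508 for it. The chemokine receptor gene Ccr3 stood at 7.83 CPM in WT spleen and 3.28 CPM in 2KR spleen (−1.22), the chemokine gene Cxcl3 at 5.25 and 1.84 CPM (−1.44) and the protease gene Bace2 at 8.16 and 3.87 CPM (−1.04). In eWAT the log2 ratios of Ccr3, Cxcl3 and Bace2 were −1.13, −2.06 and −3.84. Pcsk1, Ccr1, Cxcl1, Slco2b1, 1700061F12Rik and AA467197 were all under 2 CPM in both spleen libraries. Their eWAT log2 ratios ran from −1.83 (Slco2b1) to −3.39 (AA467197), so these calls rest mainly on eWAT. AA467197 had 2 reads in each spleen library, a log2 ratio of −0.14. Crebl2 had a common log2 fold change of 1.02 (edgeR adjusted p = 0.0514) and Pparg of −1.01 (adjusted p = 0.0752). Both passed with DESeq2 size factors in edgeR, at adjusted p = 0.00965 for Crebl2 and 0.0308 for Pparg.

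Gene lists were read against the 10006 genes at 5 CPM or more in 1 spleen library. Of these, 44.2% had a log2 ratio above 0 and 55.8% below 0, with a median of −0.04, and 1.6% were 1.5-fold higher and 3.64% 1.5-fold lower. At 2-fold, 0.31% were higher and 0.839% lower. List counts are over the members that reach this minimum, and values in pairs are WT spleen first and 2KR spleen second. The lists were chosen with earlier results of these data known, and their counts and medians are a description. Of 31 lists with a median, 21 lay below 0. For the eWAT medians of lists given below, the members at 20 CPM in both tissues had an eWAT median of −0.20.

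PPARG's partners were above 0 and its target genes near it. Among 18 genes of PPARG, its RXR partners and their coregulators, 12 were above 0 and 6 below, with a median of 0.19. Rxra, the DNA-binding partner, stood at 21.4 and 31.5 CPM (0.55), the coactivator gene Ncoa2 at 85.7 and 114.0 CPM (0.41) and Ncoa3 at 242.4 and 306.6 CPM (0.34). These genes have long transcripts, with a median of 6174.5 bases, and long transcripts as a whole were higher. Of 22 targets of PPARG and genes of lipid handling, 8 were above 0 and 14 below, with a median of −0.04. Abca1, the cholesterol exporter, was the only one at 1.5-fold, at 18.5 and 30.3 CPM (0.71, and 1.05 in eWAT). Fasn, fatty acid synthase, stood at 94.7 and 133.4 CPM (0.49), and Ucp2, a mitochondrial carrier, at 1713 and 1322 CPM (−0.37).

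Cyp4f18 and Hpgd belong to a list of prostaglandin and leukotriene genes. Of its 14 members, 5 were above 0 and 9 below, with a median of −0.07. Ptgir, the prostacyclin receptor, stood at 5.33 and 8.66 CPM (0.68), and Ptger2, a receptor of prostaglandin E2, at 160.6 and 115.1 CPM (−0.48). Lta4h, the enzyme that makes leukotriene B4, stood at 425 and 420 CPM (−0.02). Among 33 genes known from fat Treg cells, 15 were above 0 and 18 below, with a median of −0.05 in spleen against −0.74 in eWAT. Il9r, the interleukin 9 receptor, stood at 2.18 and 8.39 CPM (1.87) and Il1rl1, the interleukin 33 receptor ST2, at 16.5 and 27.0 CPM (0.71). Both went the opposite way in eWAT, with log2 ratios of −1.14 and −2.36. Batf, a transcription factor of tissue Treg cells, stood at 286.9 and 200.9 CPM (−0.51).

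Genes of resting Treg cells were slightly higher and those of the Treg core slightly lower in 2KR spleen. Of 24 lymphoid and resting Treg genes, 19 were above 0 and 5 below, with a median of 0.09. Satb1, a chromatin organiser, stood at 242.5 and 336.6 CPM (0.47), and Klf2, a regulator of T cell trafficking, at 352.8 and 470.6 CPM (0.42). Of 22 Treg core genes, 4 were above 0 and 18 below, with a median of −0.15. Folr4 (folate receptor 4) stood at 1219 and 889 CPM (−0.46), Capg at 693.7 and 540.8 CPM (−0.36) and Ctla4, an inhibitory receptor, at 775 and 749 CPM (−0.05). T cell identity genes had a median of −0.13 over 14 genes, with Cd3e at 1387 and 1161 CPM (−0.26). No member of these 3 lists was 1.5-fold apart other than Dapl1, at 7.43 and 4.39 CPM (−0.74).

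Checkpoint genes lay below 0 on the median, and effector T helper genes near the value of all genes. Of 19 checkpoint and costimulatory genes, 5 were above 0 and 14 below, with a median of −0.21, and 3 were 1.5-fold lower: Lag3, Havcr2 (the receptor TIM-3, 8.40 to 4.79 CPM, −0.79) and Pdcd1lg2 (the ligand PD-L2, 49.0 to 30.2 CPM, −0.69). Tbx21, the type 1 factor T-bet, stood at 50.8 and 30.6 CPM (−0.73), and Cxcr3, a chemokine receptor under it, at 299.3 and 199.4 CPM (−0.59). Their eWAT log2 ratios were 0.91 and 0.59. The full list of 12 effector T helper genes had a median of −0.06, with 5 above 0 and 7 below.

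Heat shock genes had the highest median of the lists with at least 5 genes. Of 20 genes, 16 were above 0 and 4 below, with a median of 0.29, and 5 were 1.5-fold higher, against 1.6% of all genes. Hsph1 led them, followed by Dnajb4 (34 to 56.7 CPM, 0.73), Hspa1b (98.3 to 157.1 CPM, 0.68), Dnaja1 (98.5 to 155.9 CPM, 0.66) and Dnajb1 (284.7 to 428.1 CPM, 0.59), all chaperones or their cofactors. The endoplasmic reticulum chaperone Hspa5 stood at 1341 and 1277 CPM (−0.07). In eWAT the list's median was −0.24, near the −0.20 of the members at 20 CPM in both tissues. Immediate early and stress genes had a median of 0.02 over 27 genes in spleen, against −0.83 in eWAT. Junb, an early response factor, stood at 2120 and 2146 CPM in spleen. NF-kB target genes were at −0.07 over 21 genes, interferon response genes at −0.02 over 26, cell cycle genes at −0.02 over 27 and cholesterol synthesis genes at 0.04 over 21. TGF-beta receptor and SMAD genes were at 0.13 over 15 genes, with 12 above 0 and 3 below.

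Genes of ribosomes and respiration were lower together by small amounts. Of 23 cytosolic ribosomal protein genes, 22 were below 0, with a median of −0.28, and of 25 oxidative phosphorylation genes, 24 were, with a median of −0.36. Cox5a, a subunit of cytochrome oxidase, stood at 163.8 and 116.9 CPM (−0.49). Over whole families among the members, all 45 cytosolic ribosomal protein genes were below 0 (median −0.30), as were 68 of 71 mitochondrial ribosomal protein genes (−0.22), 32 of 33 NADH dehydrogenase subunit genes (−0.35) and 39 of 44 proteasome subunit genes (−0.18). Of 184 zinc finger protein genes, 133 were above 0 (0.11). The medians of the 2 lists were −0.34 and −0.35 in eWAT.

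**Figure D3:**
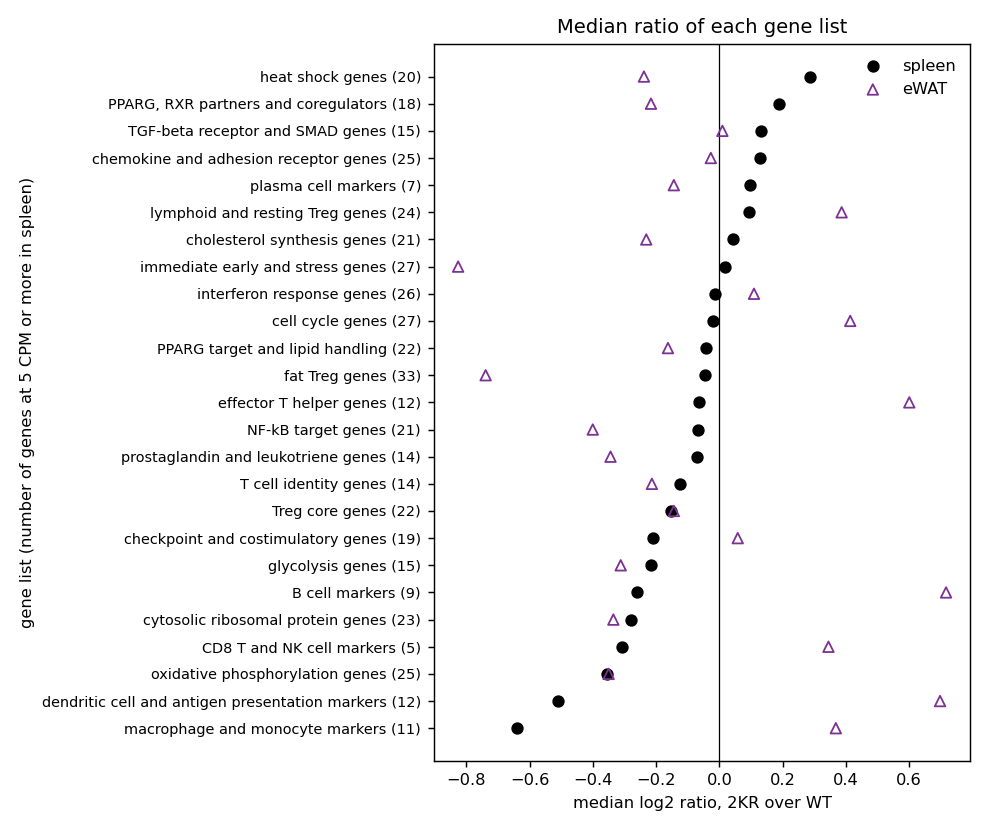
Median log2 ratio of 2KR over WT of each gene list with at least 5 genes at 5 CPM or more in spleen, as circles for spleen and triangles for eWAT, with the number of genes in parentheses. Ribosomal and respiration genes are below 0 in both tissues, and macrophage, dendritic, B cell and CD8 T and NK cell markers are below 0 in spleen and above 0 in eWAT.

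These families have short transcripts, and the ratio followed transcript length (the longest transcript of a gene in the authors' isoform table) over all members. The 517 members with a transcript under 1 kb had a median log2 ratio of −0.26, and 3.87% of them were above 0. The median was −0.18 from 1 to 1.5 kb (778 members), −0.10 from 1.5 to 2 kb (994), −0.03 from 2 to 3 kb (1930), 0.05 from 3 to 5 kb (2335) and 0.09 over 5 kb (1292), where 70.4% were above 0. In eWAT the medians ran the same way, from −0.40 under 1 kb to −0.02 over 5 kb. Median lengths were also short for the markers of dendritic cells (1131 bases), macrophages (1355) and CD8 T and NK cells (1416), though not of B cells (2436). That of the TGF-beta receptor and SMAD genes was long (5331). The part of transcript length in the ratios of these lists and of the ribosomal, respiration and coregulator lists was not tested.

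**Figure D4:**
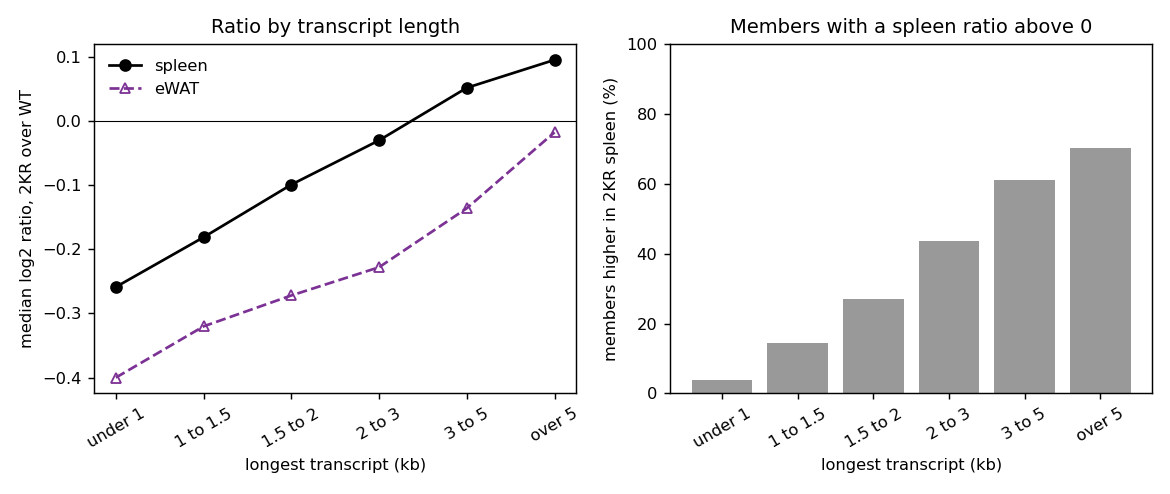
Left, median log2 ratio of 2KR over WT of the members by length of the longest transcript (bins in kb), as circles for spleen and triangles for eWAT; right, the percent of members with a spleen ratio above 0 in each bin. The spleen median climbs from −0.26 to 0.09, and the percent from 3.87 to 70.4.

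Markers of other cells were lower in the 2KR spleen library for most immune types. Of 21 macrophage and monocyte markers, 11 reached 5 CPM, of which 10 were below 0, with a median of −0.64. Beside C1qa and C1qb they included C1qc (14.5 to 8.13 CPM, −0.82) and Cd68, a lysosomal protein of phagocytes (14.6 to 8.59 CPM, −0.76), whereas Lyz2, lysozyme, stood at 19.8 and 24.2 CPM (0.29) and the growth factor receptor gene Csf1r at 27.5 and 19.9 CPM (−0.46). The summed level of the list was 904 CPM in WT spleen and 724 CPM in 2KR spleen, log2 −0.32 (−0.36 to −0.28), most of it from the protease gene Ctss (674 to 562 CPM). All 12 dendritic cell and antigen presentation markers at 5 CPM were below 0, with a median of −0.51. Cd74, the MHC class II invariant chain, stood at 741 and 502 CPM (−0.56), and the MHC class II genes H2-Aa at 97.0 and 61.7 CPM (−0.65) and H2-Eb1 at 66.3 and 38.5 CPM (−0.78). The sum was 1445 and 1013 CPM.

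Lymphocyte markers were mixed. The B cell list had 7 of 9 genes below 0 with a median of −0.26 and a sum of 531 and 455 CPM, yet Cd79a, which encodes a signalling chain of the B cell receptor, stood at 10.01 and 10.7 CPM (0.09). Of 5 CD8 T and NK cell markers, 3 were below 0, with a median of −0.31 and a sum of 241 and 182 CPM, mainly Nkg7, a granule protein (135.0 to 82.9 CPM, −0.70). Cd8a had 8 and 6 reads, and Cd8b1 stood at 29.1 and 34.8 CPM (0.26). Plasma cell markers had a median of 0.10 over 7 genes, with the joining chain Igj at 65.2 and 64.3 CPM. In eWAT the medians of the macrophage, dendritic, B cell and CD8 T and NK lists went the opposite way, at 0.37, 0.70, 0.72 and 0.34. Their sums in WT eWAT and 2KR eWAT were 2120 and 2842 CPM, 10002 and 17471 CPM, 552 and 562 CPM, and 352 and 468 CPM. The B cell sum was thus nearly equal in eWAT.

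Other cell types had lower sums than the macrophage and dendritic lists. The sum over neutrophil markers was 5.98 and 2.75 CPM, and over endothelial markers 8.40 and 4.59 CPM, with 0 of each list at 5 CPM. Erythroid markers summed to 76.8 and 64.7 CPM, mostly Gata1 (64.4 and 55.0 CPM). Beta-s, at 29.96 and 4.20 CPM, was not in that sum. Platelet markers summed to 44.3 and 49.5 CPM, fibroblast markers to 62.7 and 67.0 CPM, mostly Gsn, mast cell markers to 11.2 and 9.18 CPM and adipocyte markers to 37.2 and 30.6 CPM, mostly Lipe. The defining genes Col1a1 of fibroblasts (18 and 12 reads), Adipoq of adipocytes (3 and 8 reads) and Elane of neutrophils (3 and 0 reads) were near 0. The part of these markers in the differences of Lag3, Tbx21, Nkg7 or C1qb was not tested. Without the marker genes of other cells and Beta-s, a choice made after seeing the data, 4 genes were higher and 8 lower by 2-fold.

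Trace genes as a whole were lower in 2KR spleen. The 8366 genes with a mean under 1 CPM took 37381 reads (0.282% of all) in WT spleen and 28011 reads (0.175%) in 2KR spleen, a log2 ratio of the summed CPM of −0.72 (−0.74 to −0.69). Of these genes 2089 were 2-fold lower and 545 2-fold higher. The median log2 ratio was −0.60 from 0.2 to 1 CPM, −0.32 from 1 to 5 CPM, −0.11 from 5 to 20 CPM and −0.01 at 100 CPM or more. In eWAT the bins went the opposite way, with 0.67 from 0.2 to 1 CPM and −0.27 at 100 CPM or more. The deeper 2KR spleen library had a read for 18540 symbols, and 18223 would be expected from it at the depth of WT spleen, which had 19463. The sum of the deposited FPKM over the same genes did not show the difference (log2 0.019), and 427 genes with transcripts under 500 bases held 43.1% of it in WT and 56.8% in 2KR spleen. Over transcripts of at least 500 bases, a choice made after seeing the data, it was −0.38.

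Olfactory receptor genes, which work in the nose, show the same shift. Their 1123 symbols took 2557 reads (206.5 CPM) in WT spleen and 1656 reads (108.6 CPM) in 2KR spleen, log2 −0.93 (−1.02 to −0.84). In eWAT they took 475.8 CPM in WT and 938.0 CPM in 2KR. The vomeronasal receptor genes had a log2 ratio of −0.65 in spleen. The source of these reads was not tested. The macrophage, dendritic and B cell markers lay, on the median, lower in the library with the fewer olfactory receptor reads in each tissue, 2KR in spleen and WT in eWAT.

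**Figure D5:**
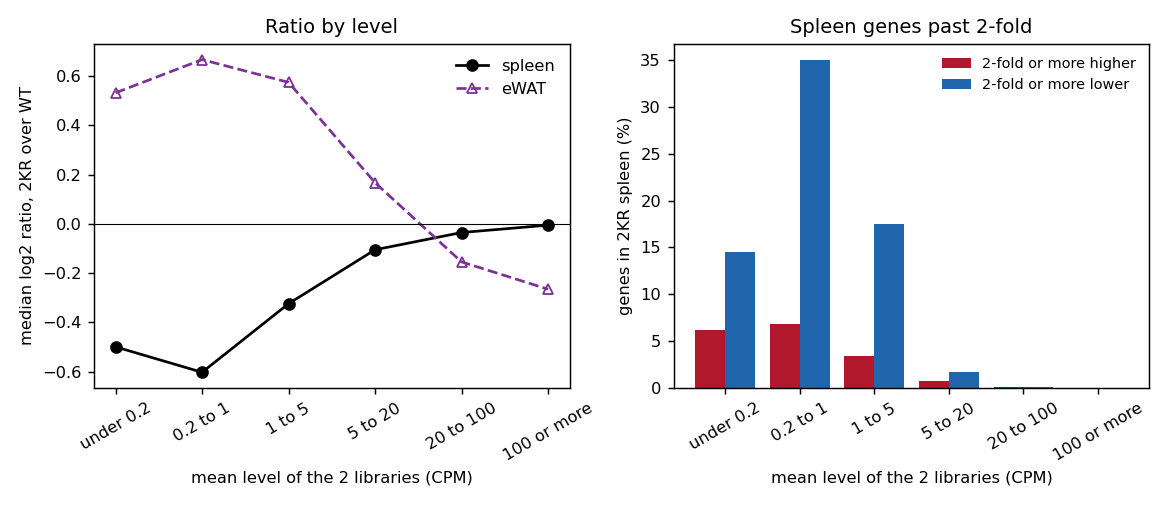
Left, median log2 ratio of 2KR over WT of genes by mean level of the 2 libraries of a tissue (bins in CPM), as circles for spleen and triangles for eWAT; right, the percent of genes in each bin that are higher (red) or lower (blue) by 2-fold in 2KR spleen. Medians under 5 CPM are below 0 in spleen and above 0 in eWAT, and 35.0% of the genes from 0.2 to 1 CPM are lower in spleen.

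Both directions were counted side by side in the 2 tissues. Of 9744 genes at 5 CPM or more in both tissues, 304 (3.12%) were 1.5-fold lower in 2KR spleen and 151 (1.55%) higher, and 1019 (10.5%) were lower and 591 (6.07%) higher in 2KR eWAT. Lower in both were 44 genes, 14.5% of the spleen list and 4.32% of the eWAT list. Lower in spleen and higher in eWAT were 70, 23.0% of the spleen list and 11.8% of the eWAT list. Higher in both were 29, 19.2% of the spleen list and 4.91% of the eWAT list. Higher in spleen and lower in eWAT were 17, 11.3% of the spleen list, near the 10.5% of all these genes lower in eWAT, and 1.67% of the eWAT list. At 2-fold, 5 of the 9744 genes were lower in both tissues (Hpgd, Slc41a3, Ccr3, Cxcl3 and Bace2) and 2 higher in both. The latter were Ppp1r3b, a glycogen-targeting subunit of protein phosphatase 1, at 3.63 and 8.13 CPM (1.13, and 1.22 in eWAT), and Zfp619, at 2.1 and 6.23 CPM (1.497, and 1.24 in eWAT). Higher in 2KR spleen and lower in 2KR eWAT were 3 genes, Cyp4f18, Il9r and Mmp9, which stood at 236.0, 63.1 and 299.2 CPM in WT eWAT. Lower in 2KR spleen and higher in 2KR eWAT were 7 genes, Treml4, Nhlrc1, Emr4, Abca13, Cenpi, Mtap2 and Alpl. For scale, 0.839% of the 10006 genes at 5 CPM in spleen were 2-fold lower there and 0.31% higher. In eWAT, 1.55% of the 7028 members at 20 CPM in both tissues were 2-fold lower and 0.526% higher. The overlap counts at 2-fold were not tested against such shares.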

How the data were processed

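The deposited counts are whole reads per gene symbol, unscaled by the authors. Per the deposited readme, poly-A libraries were sequenced with 100 bp reads and aligned to mm9 with Tophat 2.1.0, with up to 10 multiple hits. The labels name mm8 beside mm9. How reads were counted (tool, strand, several hits) is not given in the sources used here, and overlapping or near-identical genes are therefore uncertain. The FPKM values, which the authors computed with Cufflinks 2.0.2 as the deposited readme states, served as an alternative. The authors' isoform tables gave transcript lengths.

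From the counts, CPM used TMM factors (0.934 and 0.953 for WT and 2KR spleen, 0.968 and 1.159 for WT and 2KR eWAT, with edgeR 4.0.16, R 4.3.3). Ratios had a prior count of 2, and intervals are exact conditional binomial. DESeq2 1.42.0 gave alternatives. Other steps used Python 3.11.15, pandas 2.3.3 and scipy 1.17.1. Scripts were tested on simulated data. The members and the 33 gene lists (667 of 677 genes found) were chosen with earlier results of these data known. Named were the anchor genes, up to 15 members per direction by ratio, genes past 2-fold in the same direction in both tissues, up to 10 genes of the common effect and, per list, up to 4 members and those of highest level. Batf, Cd68, Dnajb1, Ncoa2, the haemoglobin symbols, Cd79a, Cd8a, Cd8b1, Csf1r, Lyz2, Igj, Col1a1, Adipoq, Elane, Gapdh, Hmgcs1, Kif20b, Tnfrsf22, Rpl32, Erc1 genes between 10 and 20 CPM and genes past 2-fold in opposite directions were named outside it, after their values were seen. Coordinates of genes are mm9 as deposited; promoters and the coding stretch are from GRCm38. Some genes that the rule selects are not reported here.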

Additional observations from a re-analysis of the deposited data

Results flagged for a closer look

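These results went in opposite directions in the 2 tissues, and the difference between tissues was not tested, since each tissue had 1 library per genotype. Cyp4f18 had a log2 ratio of 2KR over WT of 6.12 in spleen and −2.04 in eWAT. The median log2 ratio of macrophage and monocyte markers was −0.64 in spleen and 0.37 in eWAT. That of dendritic cell and antigen presentation markers was −0.51 and 0.70, that of B cell markers −0.26 and 0.72, and that of CD8 T and NK cell markers −0.31 and 0.34.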

How the results depend on the processing

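The main counts in spleen were 4 genes higher and 10 lower by 2-fold. TMM factors from the 2 spleen libraries gave 7 higher and 6 lower, and DESeq2 size factors 8 higher. A 10 CPM minimum gave 11 higher and 24 lower, a 50 CPM minimum 0 lower, a mean of 20 CPM 3 lower and a 1.5-fold line 62 higher and 78 lower. Total read counts, a prior count of 0.5 and FPKM kept both counts within 1.5 times. The summed trace level of −0.72 was −0.69 with total read counts, −0.66 with DESeq2 size factors, 0.019 with FPKM and −0.38 with FPKM of transcripts of at least 500 bases. The common effect of 0 genes higher and 11 lower became 6 and 23 with DESeq2 size factors in edgeR and 9 and 42 without a filter, and DESeq2 had 2 lower. The cause was not tested. The platelet list's median turned to 0.48 at 20 CPM, where 1 gene was left. At 20 CPM the macrophage median was −0.42 and the CD8 T and NK median −0.15, and with FPKM the erythroid sum was −1.65 in place of −0.25. The ratios of named members kept their direction in 155 of 155 alternative values and stayed within their counting interval or within 0.1 of the main value, though some near 2-fold crossed that line. The alternatives reuse the same 2 libraries, and most of these genes were named for large ratios. A change of direction was hardly possible, so this count is no check of the ratios. No paired analysis was possible because each group had 1 library and the labels give no replicate numbers. Leaving out a library would leave no comparison in spleen and no residual degree of freedom in the common test, and so was not run. Depth limits genes under 1 CPM, which have few reads each.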
